A study of Mus musculus with 4 samples.

Results

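The 10 genes described here, Cdh5, Kdr, Tek, Cldn5, Pecam1, Esam, Vwf, Rgs5, Pdgfrb and Pdgfra, are widely used as markers of blood vessel cells. They were chosen by symbol from the 28168 loci of the deposited table, and each matched 1 locus. The 4 libraries were made from RNA of mature olfactory sensory neurons sorted from mice, and the comparison is of the transgenic line Nd1, which the series title describes as expressing genomically encoded double-stranded RNA, with control mice. All mice carried a GFP reporter behind an internal ribosome entry site at Omp (OMP-IRES-GFP+/-). The 2 Nd1 libraries came from Nd1+/- mice that also carried OMP-IRES-tTA+/-, which places the transcriptional activator tTA in mature neurons through the Omp gene, at 212 days (replicate 1) and 87 days (replicate 2). Of the 2 control libraries, replicate 1, at 212 days, was Nd1+/- without tTA (OMP-IRES-tTA-/-), and replicate 2, at 87 days, was Nd1-/- with OMP-IRES-tTA+/-. The table header calls the controls littermates, and the labels used here do not say how many mice entered a library. The table gives 1 pooled FPKM value per group (FPKM counts fragments relative to transcript length and to the number of mapped fragments), so no value per library and no spread between replicates can be given, and the depth of each library is unknown.

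Endothelial cells line blood vessels and are held together by junctions of VE-cadherin (Cdh5), claudin 5 (Cldn5), PECAM-1 (Pecam1) and ESAM (Esam). They grow and survive through the receptor tyrosine kinases VEGFR2 (Kdr), which binds vascular endothelial growth factors, and TIE2 (Tek), which binds angiopoietins, and they store von Willebrand factor (Vwf), a clotting protein. Mural cells, the pericytes and smooth muscle cells that wrap the vessel, are recruited through PDGF receptor beta (Pdgfrb) and express Rgs5, a GTPase-activating protein that ends G protein signals. Pdgfra, the alpha receptor for PDGF, is better known from fibroblasts and other mesenchymal cells than from mural cells. Several of these genes are not private to vessels, since Pecam1 is also found on platelets and leukocytes and Vwf in megakaryocytes and platelets. The sorted tissue, the olfactory epithelium, lies on a vascular lamina propria, and the sort was for neurons.

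The 10 genes did not move as a body. Esam and Pecam1 rose in Nd1, Vwf, Rgs5, Pdgfrb and Pdgfra fell, Cldn5 did not pass, and Cdh5, Kdr and Tek were too low for the authors to test. Thus 2 members were called higher and 4 lower at q under 0.05 in the authors' Cuffdiff test, where 34.4% of all 14841 tested loci were called, 15.1% higher and 19.2% lower. A locus was tested only where enough reads were found, and no tested locus had less than 0.308 FPKM in the larger of its groups. Esam passed that filter through Nd1, and Pdgfra and Pdgfrb through control, so the share of tested members that was called carries no weight. Over all 10 members the median log2 ratio with a pseudocount of 1 FPKM was -0.19. It was -0.40 with a pseudocount of 0.1 FPKM, and -0.55 over the 7 members whose mean reached 0.5 FPKM. The value over all tested loci was -0.058 at a pseudocount of 1 FPKM, but 3 of the 10 members, with ratios near 0, were not tested. In pooled RNA, fewer cells of a type and less RNA per cell cannot be told apart.

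**Figure D1:**
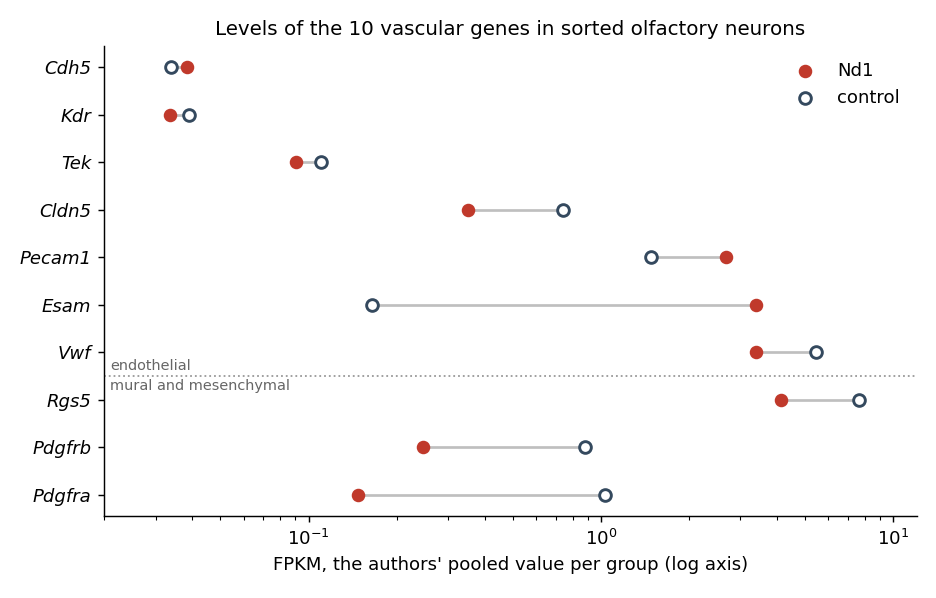
Pooled FPKM of each of the 10 genes on a log axis, in Nd1 (filled) and control (open), with endothelial genes above the dotted line and mural and mesenchymal genes below it. Cdh5 and Kdr lay under 0.04 FPKM in both groups, and Esam had the widest gap, at 3.38 FPKM in Nd1 and 0.165 FPKM in control.

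The levels did not follow the cell type that the genes are named for. The endothelial genes Cdh5, Kdr and Tek were the lowest of the 10 in both groups. Cdh5 stood at 0.0385 FPKM in Nd1 and 0.0339 FPKM in control. Kdr stood at 0.0335 FPKM in Nd1 and 0.0391 FPKM in control, and Tek at 0.0906 FPKM in Nd1 and 0.110 FPKM in control. Against these, Vwf stood at 3.39 FPKM in Nd1 and 5.45 FPKM in control, and Pecam1 at 2.68 FPKM in Nd1 and 1.49 FPKM in control. In the order of Nd1 levels Rgs5 came first, then Vwf, Esam, Pecam1, Cldn5, Pdgfrb, Pdgfra, Tek, Cdh5 and Kdr. In control the order was Rgs5, Vwf, Pecam1, Pdgfra, Pdgfrb, Cldn5, Esam, Tek, Kdr and Cdh5. Without a spread per group, it cannot be said which neighbours in these orders differ. All 10 genes lay at or below the middle of the tested loci, whose median was 7.63 FPKM in Nd1 and 7.97 FPKM in control. The highest, Rgs5, exceeded 37.3% of them in Nd1 and 49.0% in control. Summed over the 7 endothelial members the level was 9.97 FPKM in Nd1 and 8.02 FPKM in control, and the neuronal gene Omp alone stood at 605 FPKM in Nd1 and 4087 FPKM in control. Because genes named for the same cell differed in level and in direction, they are described gene by gene.

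**Figure D2:**
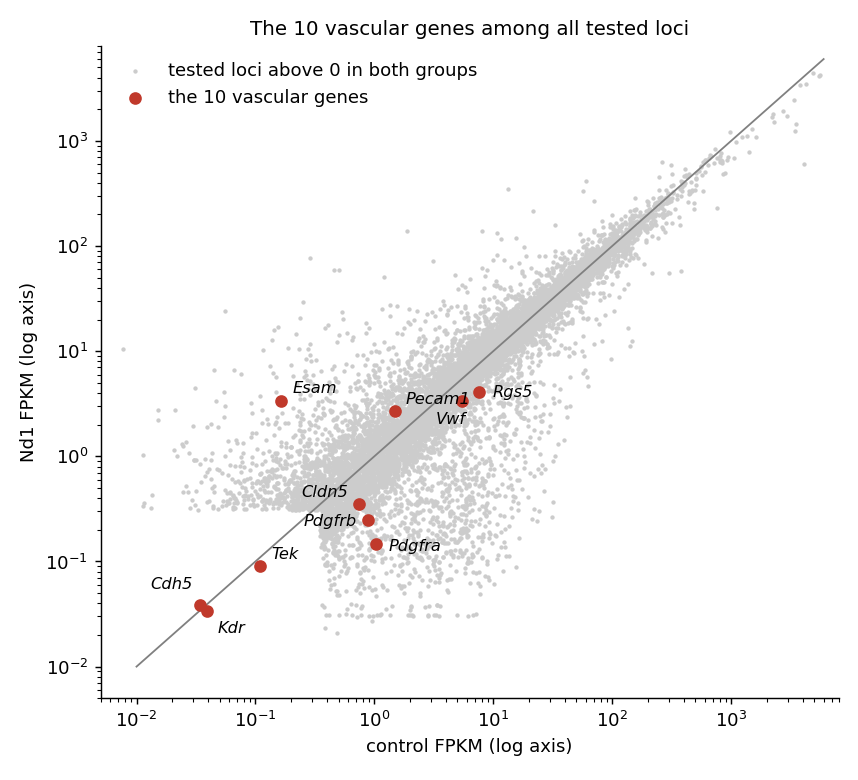
Nd1 against control FPKM, both on log axes, of the 10 genes (large points) over all tested loci above 0 in both groups (small points), with the line of equal values. Esam lies far above the line and Pdgfra and Pdgfrb well below it, and Cdh5, Kdr and Tek lie near the line at levels too low in both groups to have been tested.

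Among the junction genes, Esam showed the largest rise of the 10 members. Esam encodes an immunoglobulin-like adhesion molecule of endothelial tight junctions (mm9 chromosome 9, 37335674 to 37345904, in the authors' deposited table). It had 3.38 FPKM in Nd1 and 0.165 FPKM in control, a 20.5-fold higher level in Nd1. The log2 fold change in the authors' deposited table was 4.36, with a standard error of 0.51 implied by their test statistic, a 95% interval of 10.3-fold to 40.9-fold, and a q listed as 0. Among the 1980 called rises that reached 1 FPKM in either group it ranked 74th by log2 fold change. Esam made up 33.9% of the summed FPKM of the endothelial members in Nd1 and 2.06% in control. Because it was low in control, its size depended on the pseudocount, with a log2 ratio of 1.91 at a pseudocount of 1 FPKM and 3.71 at 0.1 FPKM. The next listed locus, Vsig2, which begins 935 bases after Esam, stood at 0.450 FPKM in Nd1 and 0.0610 FPKM in control and did not pass (q = 0.0723 in the authors' deposited table).

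Pecam1, an immunoglobulin-like molecule through which endothelial cells, platelets and leukocytes adhere, also rose (mm9 chromosome 11, 106515532 to 106576595). Its level was 2.68 FPKM in Nd1 and 1.49 FPKM in control, 1.81-fold higher in Nd1, with an implied 95% interval of 1.37-fold to 2.39-fold. The log2 fold change was 0.85 with an implied standard error of 0.21 (q = 0.000181, authors' deposited table). This rise was of middling size, the 965th of the 1980 rises. Cldn5, the claudin that seals the blood-brain barrier (mm9 chromosome 16, 18776940 to 18778355), lay the other way. It had 0.351 FPKM in Nd1 and 0.740 FPKM in control, with a log2 fold change of -1.07 and an implied standard error of 0.50, and did not pass (q = 0.0807, authors' deposited table). Cdh5, the cadherin on which endothelial junctions rest (mm9 chromosome 8, 106625525 to 106668402), was not tested. Its listed log2 fold change of 0.18 has an implied 95% interval from -1.58 to 1.95, which spans levels from 2.98-fold lower to 3.85-fold higher in Nd1.

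**Figure D3:**
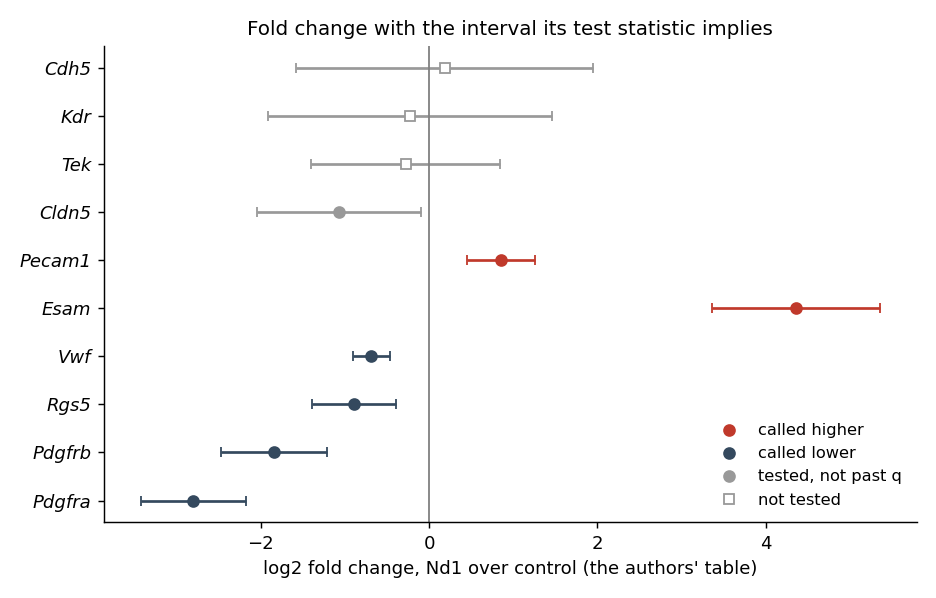
The authors' log2 fold change of Nd1 over control for each of the 10 genes, with the 95% interval that their test statistic implies. The intervals of Esam and Pecam1 lie above 0, those of Vwf, Rgs5, Pdgfrb and Pdgfra below 0, and those of the untested Cdh5, Kdr and Tek span it; that of Cldn5 ends at -0.10, and its q did not pass.

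Vwf, the secreted glycoprotein that tethers platelets, fell and was the second most abundant of the 10 in each group. Its level was 3.39 FPKM in Nd1 and 5.45 FPKM in control, a log2 fold change of -0.68 with an implied standard error of 0.11 (q = 1.56e-08, authors' deposited table). That is a 1.61-fold lower level in Nd1, with an implied interval of 1.38-fold to 1.87-fold. Vwf made up 34.0% of the summed FPKM of the endothelial members in Nd1 and 67.9% in control. Without Vwf the other 6 endothelial members summed to 6.58 FPKM in Nd1 and 2.57 FPKM in control, and without both Vwf and Esam the remaining 5 summed to 3.20 FPKM in Nd1 and 2.41 FPKM in control. The direction of the endothelial sum thus turned on Esam, since the 6 members without it summed to 6.59 FPKM in Nd1 and 7.86 FPKM in control.

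The Vwf locus (mm9 chromosome 6, 125482605 to 125636695) ends 3741 bases before that of Ano2, the calcium-activated chloride channel of olfactory cilia. In the GENCODE annotation of the later mouse build both genes lie on the plus strand, with Ano2 following Vwf. Ano2 stood at 152 FPKM in Nd1 and 261 FPKM in control, a log2 fold change of -0.78 with an implied standard error of 0.066 (q listed as 0, authors' deposited table). The Vwf level was 2.24% of that of Ano2 in Nd1 and 2.09% in control. Both neighbours were thus called lower in Nd1, as were 19.2% of all tested loci, and whether reads were shared between them was not tested. The sources used here do not say whether the authors' counting used strand, which would not separate 2 genes on the same strand.

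The growth factor receptors of endothelium lay below nearly all tested loci. Kdr exceeded 0.67% of them in each group, and Tek 1.39% in Nd1 and 1.45% in control. Kdr (mm9 chromosome 5, 76329299 to 76374453) had a listed log2 fold change of -0.22 with an implied 95% interval from -1.91 to 1.47, and Tek (mm9 chromosome 4, 94405991 to 94541630) one of -0.28 with an interval from -1.40 to 0.84, and neither was tested. Of their ligands and co-receptors, more were present. Vegfb, a ligand of VEGFR1, rose to 9.18 FPKM in Nd1, against 5.99 FPKM in control (log2 fold change 0.62, implied standard error 0.20, q = 0.00864, authors' deposited table). Pgf, placental growth factor, rose to 2.40 FPKM in Nd1, against 1.37 FPKM in control (q = 0.0298, authors' deposited table). Vegfa, the main ligand of Kdr, had 0.491 FPKM in Nd1 and 0.967 FPKM in control and did not pass (q = 0.0572, authors' deposited table). The neuropilins, which serve semaphorins in axons as well as VEGF in vessels, were the most abundant genes of this list and moved in opposite directions. Nrp2 rose to 48.5 FPKM in Nd1, against 37.6 FPKM in control, and Nrp1 fell to 9.96 FPKM in Nd1, against 14.8 FPKM in control. Nrp1 was listed at 2 loci, and its values are those of the locus of higher mean FPKM.

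The angiopoietins, the ligands of Tek, were also called in opposite directions. Angpt1 was tested only through its level in Nd1 and Angpt2 only through its level in control, so these directions carry no weight. Angpt1, the agonist, rose to 0.556 FPKM in Nd1, against 0.0937 FPKM in control (log2 fold change 2.57, implied standard error 0.54, q = 1.5e-05, authors' deposited table). Angpt1 was listed at 2 loci, and its values are those of the locus of higher mean FPKM. Angpt2, which can oppose it and is named after its values were seen, fell to 0.215 FPKM in Nd1, against 0.460 FPKM in control (q = 0.0310, authors' deposited table). In all, of 18 vascular growth factors and partner receptors 11 were tested, of which 4 rose, 4 fell and 3 did not pass, beside the 34.4% called among all tested loci. The fourth fall besides Angpt2, Nrp1 and Pdgfa was that of the Notch ligand Jag1, which had 9.57 FPKM in Nd1 and 13.3 FPKM in control. The list median was -0.057 with a pseudocount of 1 FPKM, beside -0.058 over all tested loci.

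**Figure D4:**
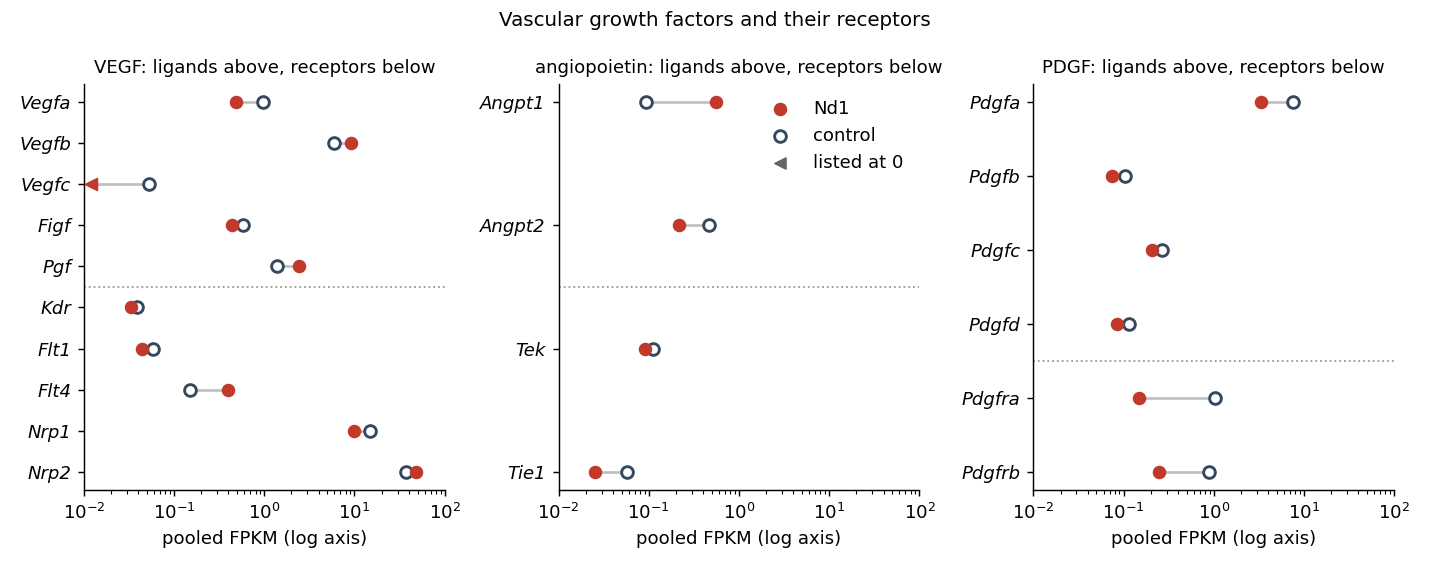
Pooled FPKM, on log axes, of VEGF, angiopoietin and PDGF ligands (above the dotted lines) and of their receptors and co-receptors (below), in Nd1 (filled) and control (open), with triangles at genes listed at 0. Kdr, Flt1, Tek and Tie1 lay at or under 0.110 FPKM in both groups, and the PDGF receptors and Pdgfa were lower in Nd1.

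The mural members Rgs5 and Pdgfrb and the mesenchymal member Pdgfra fell, where 19.2% of all tested loci were called lower. Pdgfrb and Pdgfra were tested only because of their level in control. Rgs5 was the most abundant of the 10 genes (mm9 chromosome 1, 171585632 to 171623657). It had 4.12 FPKM in Nd1 and 7.65 FPKM in control, a 1.86-fold lower level in Nd1 with an implied 95% interval of 1.31-fold to 2.63-fold. Its log2 fold change was -0.89 with an implied standard error of 0.26 (q = 0.00207, authors' deposited table). Its neighbour Rgs4, of the same family of G protein regulators and 47950 bases away, was called the other way, with 2.59 FPKM in Nd1 and 0.0943 FPKM in control (q = 4.11e-15, authors' deposited table). Rgs4 was tested only through its level in Nd1, so its direction carries no weight.

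Both PDGF receptors were less abundant than Rgs5 and had larger log2 fold changes, a difference that was not tested. Pdgfrb, the receptor that draws pericytes to vessels, had 0.247 FPKM in Nd1 and 0.885 FPKM in control, 3.59-fold lower in Nd1 with an implied interval of 2.32-fold to 5.55-fold (log2 fold change -1.84, q = 9.02e-08, authors' deposited table). Pdgfra (mm9 chromosome 5, 75548316 to 75594229) had 0.148 FPKM in Nd1 and 1.03 FPKM in control. That is 6.97-fold lower in Nd1, with an implied interval of 4.53-fold to 10.7-fold, and the log2 fold change was -2.80 with an implied standard error of 0.32 (q listed as 0, authors' deposited table). With a pseudocount of 1 FPKM the log2 ratios were -0.82 for Pdgfra, -0.76 for Rgs5 and -0.60 for Pdgfrb, so the order by size depended on the pseudocount. Of the PDGF ligands, Pdgfa, which binds the alpha receptor, fell to 3.30 FPKM in Nd1, against 7.57 FPKM in control (log2 fold change -1.20, implied standard error 0.25, q = 1.24e-05, authors' deposited table). Pdgfb, the ligand that endothelium makes for pericytes, was not tested, at 0.0742 FPKM in Nd1 and 0.104 FPKM in control.

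Promoters were available from RefSeq (GRCm38.p6, 250 bases before to 50 after the start) for 5 of the 10 members, Cldn5, Kdr, Tek, Rgs5 and Pdgfra. Those of Rgs5 and Pdgfra are shown because both genes fell. Capitals mark the letters GGAA on either strand, the core that ETS factors of vascular cells bind.
Rgs5: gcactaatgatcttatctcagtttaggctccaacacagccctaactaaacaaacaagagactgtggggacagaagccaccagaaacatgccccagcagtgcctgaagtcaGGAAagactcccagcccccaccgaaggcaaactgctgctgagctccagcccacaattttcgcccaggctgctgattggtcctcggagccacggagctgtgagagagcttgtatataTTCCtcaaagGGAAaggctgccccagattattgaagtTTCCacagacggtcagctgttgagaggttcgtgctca
Pdgfra: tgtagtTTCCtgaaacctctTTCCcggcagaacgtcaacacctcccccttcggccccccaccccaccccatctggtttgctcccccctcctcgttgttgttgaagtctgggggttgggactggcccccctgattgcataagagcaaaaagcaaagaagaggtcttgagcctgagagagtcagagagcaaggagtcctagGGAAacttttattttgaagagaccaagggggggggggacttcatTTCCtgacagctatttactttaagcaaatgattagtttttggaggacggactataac
The Rgs5 window is chr1:169655251-169655550 and the Pdgfra window chr5:75152001-75152300, both on the plus strand. Each held 4 matches to GGAA, Kdr held 5, Tek 2 and Cldn5 0, and 96.0% of the 32851 promoters in the table held at least 1, with a median of 3. The CArG box, the element of smooth muscle genes that serum response factor binds, was searched on both strands and found in 0 of the 5 windows and in 1.63% of all promoters. The E-box CANNTG was found in each of the 5 windows and in 72.3% of all promoters. These are matches of letters in short windows and say nothing of binding.

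Further genes of vessel cells were low in these neurons as well. Of 28 other endothelial genes 27 were listed, and 23 of them lay under 0.3 FPKM in both groups, among them Flt1, Tie1 and Emcn, named here after their values were seen. The median level of the list was 0.0379 FPKM in Nd1 and 0.0462 FPKM in control, its sum was 9.76 FPKM in Nd1 and 11.1 FPKM in control, and 3 genes were listed at 0 in Nd1 and 1 in control. Without Plvap the other 26 summed to 9.01 FPKM in Nd1 and 7.82 FPKM in control. These 26 include Nos3, at 6.50 FPKM in Nd1 and 4.93 FPKM in control, so the direction of the sum depended on single genes. Only 4 were tested, of which 1 fell and none rose, beside 34.4% called among all tested loci. The fall was that of Plvap, which forms the diaphragms of fenestrated capillaries, at 0.756 FPKM in Nd1 and 3.25 FPKM in control (log2 fold change -2.10, implied standard error 0.30, q = 3.96e-11, authors' deposited table). The highest level was that of Nos3, the endothelial nitric oxide synthase, at 6.50 FPKM in Nd1 and 4.93 FPKM in control, which did not pass (q = 0.118, authors' deposited table); Nos3 has a second entry at the same coordinates. Ushbp1 stood at 0.738 FPKM in Nd1 and 0.952 FPKM in control and did not pass.

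Of 20 other mural cell genes 3 were tested and none was called, while 16 lay under 0.3 FPKM in both groups. Their sum was 6.38 FPKM in Nd1 and 7.48 FPKM in control, and 2 were listed at 0 in Nd1. The contractile genes were the highest, with Tagln at 2.73 FPKM in Nd1 and 3.19 FPKM in control, where the authors' test failed, and Acta2, smooth muscle actin, at 1.97 FPKM in Nd1 and 1.64 FPKM in control (q = 0.562, authors' deposited table). Myl9 had 0.271 FPKM in Nd1 and 0.617 FPKM in control and did not pass (q = 0.0769, authors' deposited table). At an unadjusted p under 0.05 in the authors' Cuffdiff test 2 of these 3 would be counted. Besides Myl9, Anpep, named after its values were seen, also lay lower, at 0.242 FPKM in Nd1 and 0.443 FPKM in control, and did not pass. The falls of Rgs5 and Pdgfrb stand beside a list in which 0 of 3 tested genes passed. Of all tested loci 34.4% were called, and with 3 genes the count cannot be set apart from that share.

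Pdgfra can be set beside the fibroblast genes, whose sum was 14.8 FPKM in Nd1 and 21.9 FPKM in control. The direction of this sum depended on single genes. Without Twist2 the other 16 genes, with the rise of Pi16 among them, summed to 14.4 FPKM in Nd1 and 13.4 FPKM in control. Twist2 was listed at 2 loci, and its values are those of the locus of higher mean FPKM. Of 17 genes 7 were tested, of which 1 rose, 1 fell and 5 did not pass, beside 34.4% called among all tested loci. The collagens Col1a1, at 4.65 FPKM in Nd1 and 4.48 FPKM in control, and Col1a2, at 2.97 FPKM in Nd1 and 3.40 FPKM in control, did not pass. The fall was that of the transcription factor Twist2, at 0.331 FPKM in Nd1 and 8.52 FPKM in control. The loci listed directly after that of Twist2 were also called lower in Nd1. Whether the fall of Twist2, and with it that of the fibroblast sum, was separate from theirs was not tested. The rise was that of Pi16, a marker of adventitial fibroblasts, at 2.65 FPKM in Nd1 and 0.557 FPKM in control. Of 6 lymphatic endothelial genes 3 were tested, of which 1 rose and 2 fell, beside 34.4% called among all tested loci. Pdpn fell to 0.969 FPKM in Nd1, against 2.18 FPKM in control, and Prox1, the lymphatic fate factor, fell to 0.609 FPKM in Nd1, against 1.22 FPKM in control. Prox1 was listed at 3 loci, and its values are those of the locus of highest mean FPKM. Flt4, the receptor for VEGF-C, rose to 0.392 FPKM in Nd1, against 0.150 FPKM in control, and was tested only through its level in Nd1, while the lymphatic marker Lyve1, named after its values were seen, stood at 0.012 FPKM in Nd1 and 0.0411 FPKM in control.

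**Figure D5:**
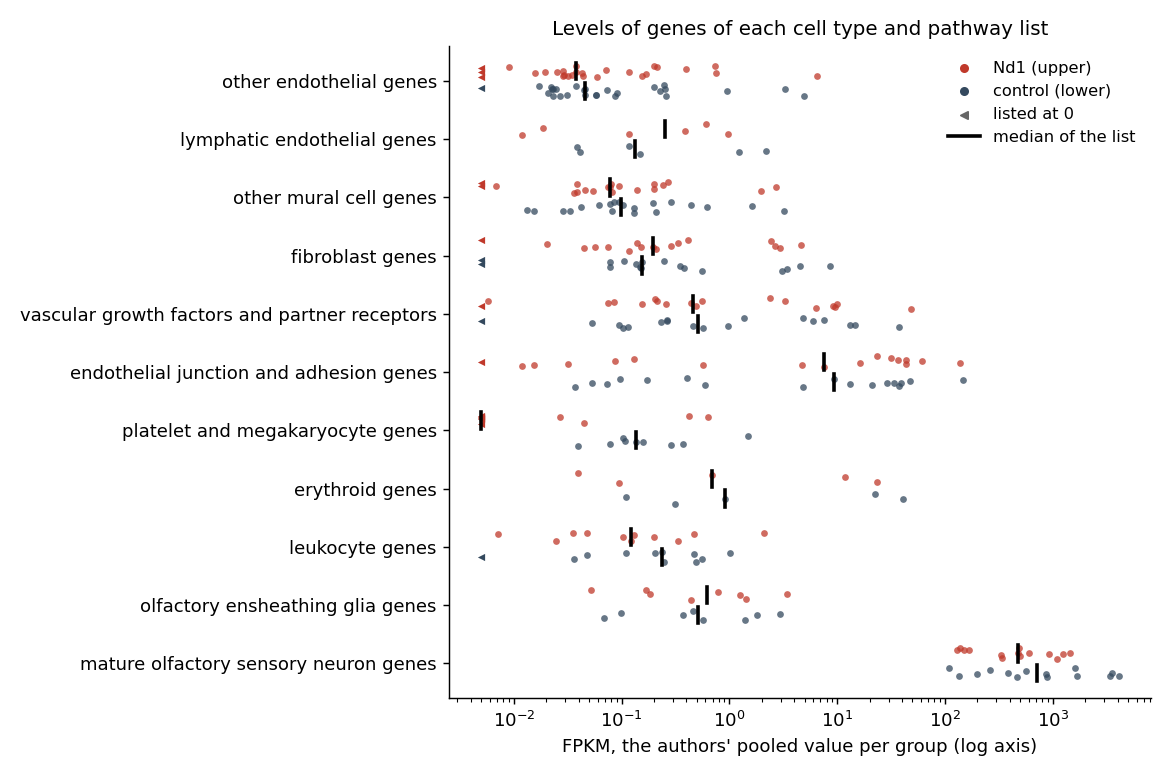
Pooled FPKM on a log axis of every listed gene of 11 marker and pathway lists, Nd1 above control within each list, with black bars at the list medians and triangles at genes listed at 0. The lists of other endothelial and other mural cell genes have medians under 0.1 FPKM in both groups. Lymphatic endothelial genes have medians of 0.254 FPKM in Nd1 and 0.133 FPKM in control. Endothelial junction and adhesion genes have medians of 7.60 FPKM in Nd1 and 9.30 FPKM in control, and mature neuron genes 480 FPKM in Nd1 and 713 FPKM in control.

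Blood cells could also carry Pecam1 and Vwf, and their markers were measured in the same libraries. Of 10 platelet and megakaryocyte genes 9 were listed, with a sum of 1.13 FPKM in Nd1 and 2.76 FPKM in control, and 5 were listed at 0 in Nd1. Among these 5 was Ppbp, a platelet chemokine, which fell and stood at 1.49 FPKM in control. It was tested only through its level in control. The integrin chains Itga2b, at 0.640 FPKM in Nd1 and 0.370 FPKM in control, and Itgb3, at 0.420 FPKM in Nd1 and 0.157 FPKM in control, rose. Itgb3 was tested only through its level in Nd1. Of the platelet genes 3 were tested, of which 2 rose and 1 fell, beside 34.4% called among all tested loci. Of 12 leukocyte genes 11 were listed, with a sum of 3.57 FPKM in Nd1 and 3.43 FPKM in control. Of these 5 were tested, of which 1 rose, 1 fell and 3 did not pass, beside 34.4% called among all tested loci. The pan-leukocyte phosphatase Ptprc, named after its values were seen, fell to 0.0475 FPKM in Nd1, against 0.490 FPKM in control. It was tested only through its level in control. The actin regulator Coro1a rose to 2.10 FPKM in Nd1, against 1.02 FPKM in control. Platelet and leukocyte markers were thus called in both directions beside the rise of Pecam1, and their part in it was not tested. The directions of Ppbp, Itgb3 and Ptprc carry no weight, since each was tested through 1 group only. Erythroid genes summed to 35.9 FPKM in Nd1 and 64.5 FPKM in control. The globins Hba-a2, at 23.2 FPKM in Nd1 and 40.5 FPKM in control, and Hbb-b1, at 11.9 FPKM in Nd1 and 22.7 FPKM in control, were called lower. Of 7 erythroid genes 5 were listed and 3 tested, of which 2 fell and 1 did not pass, beside 19.2% of all tested loci called lower. Hba-a2 is nearly identical to another alpha globin gene, so its reads may be shared between them. Hba-a2 was also listed at 2 loci, and its values are those of the locus of higher mean FPKM. Olfactory ensheathing glia genes summed to 7.76 FPKM in Nd1 and 7.72 FPKM in control. Of these, 0 of the 6 tested were called by Cuffdiff, beside 34.4% among all tested loci, with 1 at an unadjusted p under 0.05.

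The other junction and adhesion genes of endothelium spanned a wide range of levels, from the selectins Selp and Sele and the adhesion molecule Vcam1, under 0.3 FPKM in both groups and named after their values were seen, to beta-catenin (Ctnnb1). Of 17 such genes 5 lay under 0.3 FPKM in both groups and 11 were tested, of which 3 rose, 2 fell and 6 did not pass, beside 34.4% called among all tested loci. N-cadherin (Cdh2) rose to 43.8 FPKM in Nd1, against 29.2 FPKM in control, integrin beta 1 (Itgb1) rose to 23.3 FPKM in Nd1, against 13.3 FPKM in control, and plakoglobin (Jup) rose to 60.7 FPKM in Nd1, against 47.9 FPKM in control. The scaffold Tjp1 fell to 16.4 FPKM in Nd1, against 21.2 FPKM in control, as did Icam1, named after its values were seen, at 0.130 FPKM in Nd1 and 0.408 FPKM in control. Ctnnb1, at 139 FPKM in Nd1 and 148 FPKM in control, and Jam3, a relative of Esam, at 43.7 FPKM in Nd1 and 37.6 FPKM in control, did not pass. Markers of the labelled cell type were the most abundant of the lists in both groups, with Omp, Stoml3, S100a5 and Adcy3 lower in Nd1. Of 13 tested mature neuron genes 9 were called lower and 1 higher. Among all tested loci 19.2% were called lower and 15.1% higher.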

How the data were processed

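Libraries of polyadenylated RNA from sorted mature olfactory sensory neurons were prepared with Illumina TruSeq chemistry, per the labels' protocols. Bowtie, Cuffdiff 1.3.0 and mm9 are named in the submitters' processing notes, while the sources used here give neither annotation nor filters. The authors deposited 1 FPKM value per group for each locus together with a log2 fold change, its statistic and the p-value and q-value, per the file headers, and no column holds a single library (0 per-sample columns). The planned fit on values per library could therefore not be made, and every call is the authors' at q under 0.05. The standard error of a log2 fold change was taken as its size divided by that of the statistic; the p-value followed from the statistic within 1% in 99.2% of 13932 tested loci, and the statistic has the opposite sign to the fold change. This error is that of the authors' model, and with 2 libraries per group it may rest on technical spread. The calculation was tested on simulated data. Starts are given with 1 added to the table's value. The members and gene lists were chosen with earlier results of these data known. Genes named from a list are up to 4 called genes that reach 0.5 FPKM in either group, by size of log2 fold change, and up to 3 of the highest level; the VEGF, angiopoietin and PDGF ligands Vegfa, Angpt2 and Pdgfb, and Icam1, fall outside this rule and were named after their values were seen, as were genes so marked; a symbol with several loci (10 of 152 listed context genes) is given by the locus of highest mean FPKM. No gene was named for likeness of pattern, because 1 value per group gives none. Python 3.11.15, pandas 2.3.3 and scipy 1.17.1 were used. Alternatives were other q thresholds, a filter at 0.5 FPKM, a pseudocount of 0.1 FPKM and 3 scalings.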

Additional observations from a re-analysis of the deposited data

How the results depend on the processing

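The counts of members called, 2 higher and 4 lower, were the same at q under 0.01. At q under 0.1 they were 2 and 5, with Cldn5 the added fall. A filter at a mean of 0.5 FPKM could not change them, because the lowest mean of a tested member was 0.546 FPKM. Of all tested loci 27.2% were called at q under 0.01 and 39.6% at q under 0.1. The median log2 ratio over the members, -0.19, was -0.40 with a pseudocount of 0.1 FPKM, -0.18 with groups scaled to equal sums outside odorant receptor loci, -0.13 when centred on the tested loci and -0.14 after quantile normalization. Over the 7 members that passed the filter of 0.5 FPKM it was -0.55, by construction, since the low members near 0 are left out. No called member changed direction under the pseudocount or the 3 scalings, which moved the median of all tested loci by at most 0.089. Of the 10 members' log2 ratios, 6 moved by more than their implied standard error with the smaller pseudocount, and 1, that of Vwf, at -0.44 in place of -0.55, after quantile normalization. Among the context lists, the calls of Flt4, Angpt1, Angpt2, Icam1, Itgb3 and Ptprc were lost with a mean of at least 0.5 FPKM. Each of these genes was tested only through the group where it was higher, being under 0.308 FPKM in the other. The calls of Pgf, Angpt2, Icam1 and Itga2b were lost at q under 0.01. The sums without Twist2 or Plvap were chosen after seeing the data. No paired analysis was possible because the table holds 1 pooled value per group, and for the same reason no replicate could be left out. Library depth is unknown, so for Cdh5, Kdr and Tek a difference was not detectable at this depth.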
